A study of Mus musculus with 12 samples.

Results

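The levels of 8 genes that restrain signals in T cells were followed. Of the 32285 genes in the files, 5 were the cytoplasmic tyrosine phosphatases Ptpn2, Ptpn22, Ptpn6, Ptpn11 and Ptpn7, and 3 were the feedback genes Socs1, Socs3 and Cish. They were chosen by symbol under a rule with no threshold on measured values, with earlier results of these data known. The samples were CD8 T cells of NOD (NOD/ShiLtJ) mice, an inbred strain in which T cells destroy the insulin-producing cells of the pancreatic islets without any transgene or drug. All mice were prediabetic females of 10 to 15 wk. CD45.1+ cells without CD4, B220 or CD11b were sorted by whether they bound a Kd tetramer loaded with NRP-V7, a mimic of an epitope of IGRP, an islet autoantigen. This gave 3 groups, namely islet IGRP- (tetramer-negative cells from islets), islet IGRP+ (tetramer-positive cells from islets) and spleen IGRP+ (tetramer-positive cells from spleen). Each group was measured in 2 rounds, each a pool of 10 mice, so that no cell can be traced to 1 animal. The study did not sequence spleen IGRP- cells.

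The SOCS proteins and CIS, the product of Cish, are made when cytokines activate the JAK kinases and the STAT transcription factors, and they then switch the same pathway off. SOCS1 blocks JAKs downstream of interferons and of IL-2 family cytokines. SOCS3 binds the receptor chain gp130 (Il6st) and dampens IL-6 and IL-27 signals, and CIS is a STAT5 target that restrains IL-2 and T-cell receptor (TCR) signals. The phosphatases act by removing phosphate. PTPN2 acts on JAKs, STATs and the TCR kinases LCK and FYN, and PTPN22 acts on LCK and ZAP70. PTPN6 (SHP-1) is recruited by inhibitory receptors, PTPN11 (SHP-2) binds receptors such as PD-1 and also passes on growth factor signals, and PTPN7 acts on the MAP kinases ERK and p38. PTPN2 and PTPN22 are susceptibility genes for type 1 diabetes in people.

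The promoters of the 3 feedback genes, placed by RefSeq starts, are shown with 2 short letter patterns marked. Whether the marked letters take part in the regulation of these genes was not tested. These are the letters TTCNNNGAA, the core that STAT factors recognise, and GAAANNGAAA, the repeat that interferon regulatory factors (IRF) recognise. Each sequence comes from RefSeq (GRCm38.p6), runs 5′ to 3′ on the strand of the gene and spans 250 bases before to 50 bases after a transcript start annotated by RefSeq, with matches on either strand in capitals. The Socs1 window is chr16:10785487-10785786 on the minus strand, the Socs3 window chr11:117969317-117969616 on the minus strand and the Cish window chr9:107296409-107296708 on the plus strand.
Socs1: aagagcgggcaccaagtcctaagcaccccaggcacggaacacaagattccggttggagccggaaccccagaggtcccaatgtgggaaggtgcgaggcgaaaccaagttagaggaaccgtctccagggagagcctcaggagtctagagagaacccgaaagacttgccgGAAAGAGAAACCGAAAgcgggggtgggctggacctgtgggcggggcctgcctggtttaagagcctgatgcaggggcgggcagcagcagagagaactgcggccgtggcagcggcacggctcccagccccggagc
Socs3: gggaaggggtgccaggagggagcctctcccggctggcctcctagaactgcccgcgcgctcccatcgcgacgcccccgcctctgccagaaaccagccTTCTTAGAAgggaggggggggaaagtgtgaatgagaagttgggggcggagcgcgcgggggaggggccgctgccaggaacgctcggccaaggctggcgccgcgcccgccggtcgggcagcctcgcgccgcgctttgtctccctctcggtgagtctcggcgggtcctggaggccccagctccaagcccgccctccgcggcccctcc
Cish: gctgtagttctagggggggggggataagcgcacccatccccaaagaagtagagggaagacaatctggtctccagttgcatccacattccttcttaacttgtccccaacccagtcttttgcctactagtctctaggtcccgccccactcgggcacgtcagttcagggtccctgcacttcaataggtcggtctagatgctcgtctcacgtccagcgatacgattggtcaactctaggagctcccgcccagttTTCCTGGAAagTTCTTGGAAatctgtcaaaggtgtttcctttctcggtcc
The Cish window held 2 STAT-type matches and the Socs3 window 1, and neither held an IRF-type match. The Socs1 window held 2 IRF-type matches, which overlap in 1 run, and 0 of the STAT type. Of the windows of the phosphatases in the table, 1 of the pair given for Ptpn22 held 1 STAT-type match, and those of Ptpn6, Ptpn11 and Ptpn7 held none of either. Among all 32851 promoters of the table, 8.3% held TTCNNNGAA and 3.44% held GAAANNGAAA. A match is a run of letters and not a measured binding site, and both motifs were chosen after these promoters had been read.

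In the GENCODE annotation on GRCm38 the genes lie on different chromosomes. Socs1 spans chr16:10782240-10785536, Socs3 chr11:117966079-117970047, Cish chr9:107296026-107302784, Ptpn2 chr18:67665511-67724595 and Ptpn22 chr3:103859795-103912247. Ptpn6 spans chr6:124720707-124738714, Ptpn11 chr5:121130533-121191397 and Ptpn7 chr1:135132700-135145317. The whole gene, exons and introns, is meant in each case. The Socs3 and Cish windows shown above lie inside these GENCODE spans, since the start that RefSeq gives is further into the gene than the outermost GENCODE start. Predicted genes overlap Ptpn22 and Ptpn11 on the same strand and Ptpn22, Ptpn6 and Cish on the opposite one. How such reads were assigned is not given in the sources used here, so a part of the counts of these 4 genes may belong to a neighbour.

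After the filters (mitochondrial UMIs under 5%, 200 to 3500 genes in islet cells and 200 to 2000 in spleen cells), 24117 of 26818 cells were kept. A UMI (unique molecular identifier) counts 1 captured RNA molecule. The kept libraries held 1204 to 8932 cells and 5880696 to 40469961 UMIs, with a median of 2590 to 4216.5 UMIs per cell, lowest in spleen. Any 2 libraries shared 2 to 64 cell barcodes, and no pair shared more than 1.03% of the smaller library. All 6 markers of CD8 T cells were found in every library, with a summed level of 4198 to 5884 CPM, the UMIs of a gene scaled to a common library total. Exocrine markers summed to 148 and 498 CPM in islet IGRP-, to 63.9 and 183 CPM in islet IGRP+ and to 5.62 and 6.51 CPM in spleen, and endocrine markers to 137 and 10.8 CPM, 5.44 and 13.9 CPM, and 0.104 and 0.145 CPM. Of the 137 CPM in islet IGRP- Round 1, Ppy alone made 133 CPM. In each spleen library 13 of the 15 exocrine and 6 of the 7 endocrine markers were at 0, against 0 to 2 in each islet library. Myeloid markers summed to 166 to 225 CPM, of which Cst3 alone made 146 to 194 CPM. B-cell markers summed to 1.53 to 11.4 CPM, CD4 T-cell markers to 0.170 to 1.38 CPM, and NK-cell and red-cell markers to at most 1.01 and 0.869 CPM. The part of RNA from such cells in the differences below was not tested. In the sums per library, fewer cells with a transcript and less of it per cell cannot be told apart. Genes are compared below between groups only, since levels of different genes depend on how well each is captured.

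Socs3 and Socs1 stood highest in islet IGRP- cells. For Cish, Ptpn2, Ptpn22 and Ptpn11 the islet libraries lay above the spleen libraries. These genes did not differ between the tetramer-positive and tetramer-negative islet cells beyond the spread of the libraries. Ptpn6 was the member that was higher in spleen, and Ptpn7 had no common order in both rounds. How many of all genes had libraries without overlap was not counted. Differences from spleen were common in the tests below, with 13.7% of all genes called higher and 12.9% lower in islet IGRP+ than in spleen.

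**Figure D1:**
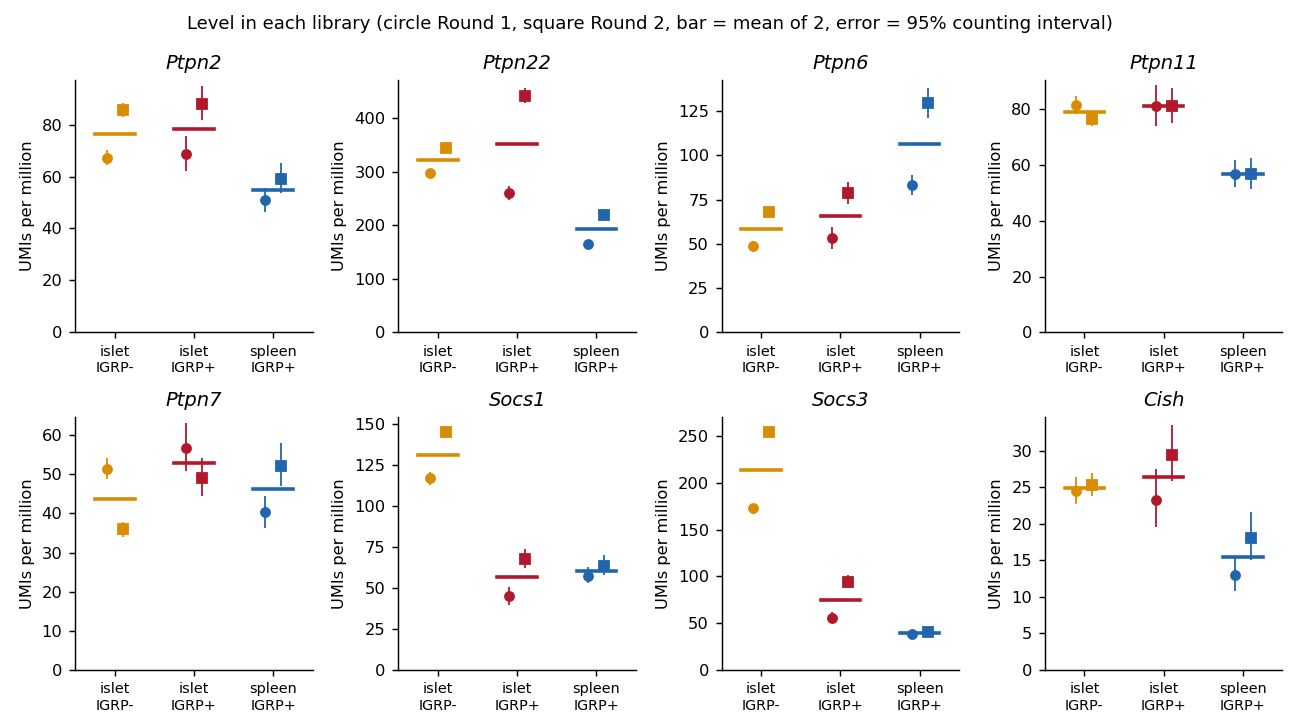
Level of each of the 8 genes in CPM (vertical axes, from 0) in the 6 libraries, with circles for Round 1, squares for Round 2, bars for the mean of both and error bars for the 95% counting interval. Socs3 is highest in islet IGRP- (173 and 254 CPM), lower in islet IGRP+ (55.4 and 94.1 CPM) and lowest in spleen (38.6 and 40.5 CPM), and Ptpn6 is highest in spleen.

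Socs3 was measured at 173 and 254 CPM in islet IGRP- cells of Rounds 1 and 2, at 55.4 and 94.1 CPM in islet IGRP+ cells and at 38.6 and 40.5 CPM in spleen IGRP+ cells. None of the 3 groups overlapped, and the order was the same in both rounds. Socs1 was at 117 and 145 CPM in islet IGRP-, at 44.7 and 67.8 CPM in islet IGRP+ and at 57.3 and 63.6 CPM in spleen. Here the islet IGRP- libraries stood apart, and the spleen values lay between those of the 2 islet IGRP+ libraries. Cish was at 24.5 and 25.3 CPM in islet IGRP-, at 23.3 and 29.4 CPM in islet IGRP+ and at 12.9 and 18.1 CPM in spleen. The islet groups overlapped, and both lay above spleen.

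Ptpn22 was at 299 and 345 CPM in islet IGRP-, at 261 and 442 CPM in islet IGRP+ and at 165 and 220 CPM in spleen. The islet IGRP+ libraries enclosed the islet IGRP- ones, and spleen was below both. Ptpn2 was at 67.3 and 85.6 CPM in islet IGRP-, at 68.5 and 88.1 CPM in islet IGRP+ and at 50.8 and 59.1 CPM in spleen. Its islet groups were again interleaved and above spleen. Ptpn11 was at 81.5 and 76.6 CPM, at 81.1 and 81.1 CPM and at 56.9 and 56.7 CPM in the same order. The spleen values of Ptpn11 were below all 4 islet values.

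Ptpn6 was at 49.0 and 68.0 CPM in islet IGRP-, at 53.1 and 78.6 CPM in islet IGRP+ and at 83.1 and 129 CPM in spleen. The lower spleen library of Ptpn6 was above the higher islet library. Ptpn7 was at 51.4 and 35.9 CPM in islet IGRP-, at 56.8 and 49.1 CPM in islet IGRP+ and at 40.3 and 52.3 CPM in spleen. For Ptpn7 all groups overlapped, and the spleen library was below islet IGRP- in Round 1 and above it in Round 2.

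Detection was compared at equal depth. Spleen cells held fewer UMIs than islet cells, so each cell was thinned to 1000 UMIs, which left out 26 to 100 shallower cells per library. Socs3 was then found in 16.2% (exact 95% CI 15.3–17.1) and 21.6% (20.7–22.5) of islet IGRP- cells. It was found in 6.11% (4.81–7.64) and 9.65% (8.22–11.2) of islet IGRP+ cells and in 3.51% (2.92–4.17) and 3.67% (2.95–4.50) of spleen cells. Without thinning the shares were 43.5% and 52.0%, 21.7% and 31.3%, and 9.02% and 9.18%. The order of the groups was the same at both depths.

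Socs1 was found in 10.2% and 13.2% of thinned islet IGRP- cells, in 5.01% and 6.50% of islet IGRP+ cells and in 4.90% and 5.65% of spleen cells. In Round 1 the thinned share of Socs1 was thus slightly higher in islet IGRP+ than in spleen, while its CPM was lower, so no order of these 2 groups is read from it. Ptpn22, found in the largest share of cells among the members, reached 25.8% and 29.1%, 23.7% and 38.9%, and 15.4% and 20.2%. Ptpn6 was detected in 3.88% and 5.87%, 4.67% and 5.85%, and 7.50% and 11.0% of cells, so that the spleen shares were the highest, as in the CPM values. Without thinning they were 16.7% and 22.2%, 20.1% and 27.3%, and 18.7% and 26.8%, so that the spleen was not the highest. Cish was found in 1.33% to 3.79% of thinned cells over the 6 libraries, and these low shares rest on few UMIs. The intervals cover counting error only. No cell type without these genes was at hand as a background for free RNA, since 6 cells in all were rich in exocrine RNA (at least 10% of UMIs) and 5 of them also held a Cd3e UMI. The study excluded a cluster of exocrine cells from its islet data, which this rule does not recover, so 6 is not the number of exocrine cells.

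Differences were tested with edgeR's quasi-likelihood test on UMIs summed per library, with p-values adjusted by Benjamini-Hochberg over all genes tested. A gene was called when its adjusted p was under 0.05, and log2 fold changes are given with their standard error (SE). The fits rescale the library totals by normalization factors (TMM, 0.898 to 1.15 in the 6 libraries), which the CPM values leave out. A fitted fold change can therefore lie outside the CPM ratios of both rounds. For Ptpn2 in islet IGRP+ against spleen it was 0.60, while the log2 CPM ratios were 0.43 and 0.58. Libraries of the same round deviate together, so each comparison was also fitted with the round as a block. A blocked call rests on 2 residual degrees of freedom in the comparisons of groups and on 1 in those of clones, and on a spread shared among genes. In the text, rose and fell are written of genes called in the fit without the block. Fits with 1 library or sum left out were also made without the block. They describe how that fit depends on single libraries and not how the blocked fit does.

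**Figure D2:**
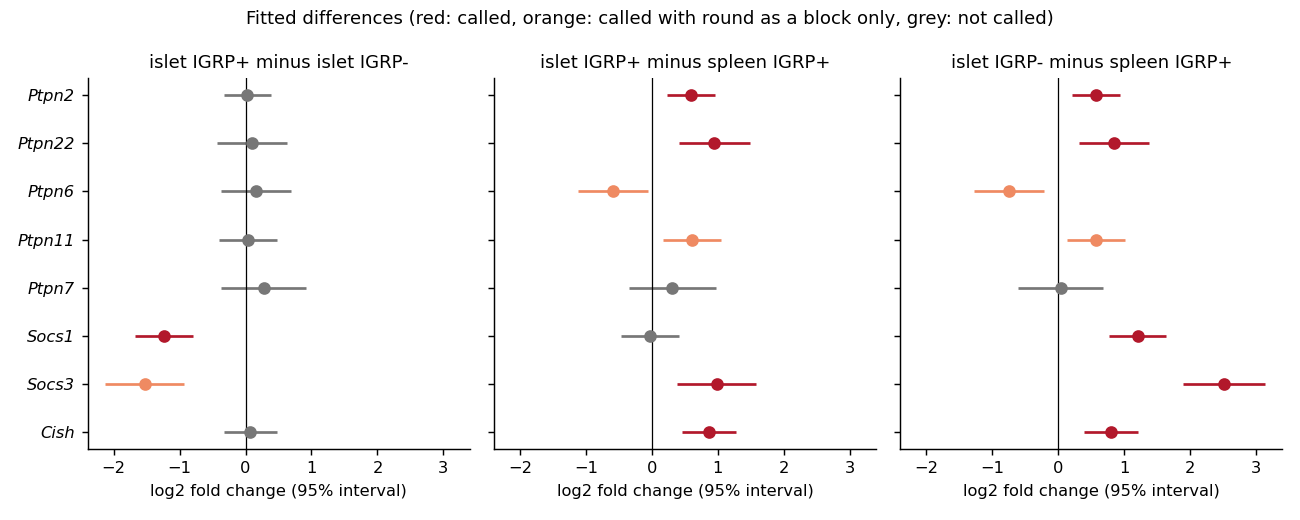
Log2 fold change (horizontal axes, 95% interval as bars) of the 8 genes in the 3 comparisons of groups, in red where called, in orange where called only with the round as a block and in grey where called in neither fit. Between the islet groups Socs1 and Socs3 lie left of 0 (−1.23 and −1.53), and against spleen Ptpn6 is the called or nearly called member on the left.

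Comparing islet IGRP+ with islet IGRP- cells asks what sets cells that recognise IGRP apart within the same tissue. Socs1 fell by 1.23 on the log2 scale (SE 0.178, adjusted p = 0.0445, 2.35-fold lower), in both rounds. Socs3 was 2.89-fold lower (log2 fold change −1.53, SE 0.246), also in both rounds, with an adjusted p of 0.0551 that missed the threshold. With the round as a block both were called, with adjusted p-values of 1.92e-05 for Socs1 and 1.18e-05 for Socs3. The other 6 members had log2 fold changes between 0.03 (Ptpn2) and 0.27 (Ptpn7), and none was called in either fit. The 95% intervals of the difference were −0.33 to 0.39 for Ptpn2, −0.43 to 0.63 for Ptpn22, −0.40 to 0.47 for Ptpn11 and −0.33 to 0.47 for Cish. Those of Ptpn6 and Ptpn7 reached 0.69 and 0.92.

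Over all 11277 genes tested, 1.04% were called lower in islet IGRP+ and 0.151% higher, beside which 1 of the 8 members was lower and 0 were higher. With the block 16.1% were lower and 14.4% higher, beside which 2 members were lower and 0 higher. The median log2 fold change was 0.05 over the members and −0.01 over all genes. The call of Socs1 was lost without any 1 of the 6 libraries (adjusted p from 0.118 to 0.296), while its log2 fold change stayed between −1.42 and −1.06.

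Comparing islet IGRP+ with spleen IGRP+ cells asks how cells of the same specificity differ between the target tissue and a lymphoid organ. In islets 4 members rose. Socs3 was 1.98-fold higher (log2 fold change 0.99, SE 0.246, adjusted p = 0.0332) and Cish 1.83-fold higher (0.87, SE 0.169, adjusted p = 0.0162). Ptpn22 was 1.93-fold higher (0.95, SE 0.219, adjusted p = 0.0264) and Ptpn2 1.52-fold higher (0.60, SE 0.149, adjusted p = 0.0322). Ptpn11 had a log2 fold change of 0.61 (SE 0.181, adjusted p = 0.0549) and Ptpn6 of −0.59 (SE 0.217, adjusted p = 0.0958). With the block these were called too, with adjusted p-values of 0.000598 for Ptpn11 and 0.0007 for Ptpn6. Socs1 had a log2 fold change of −0.03 (95% interval −0.46 to 0.41) and Ptpn7 of 0.31 (−0.34 to 0.97).

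In this comparison 13.7% of all genes tested were called higher and 12.9% lower in islets, beside which 4 of the 8 members were higher and 0 lower. With the block 28% were higher and 27.1% lower, beside which 5 members were higher and 1 lower. The members' median log2 fold change was 0.60 and that of all genes −0.03. Leaving out 1 library at a time kept the call of Socs3 and of Cish in 3 of 6 fits, of Ptpn22 in 1 and of Ptpn2 in 0. Without the Round 2 islet IGRP+ library or without either spleen library, 0 members were called, and adjusted p-values reached 0.162 for Ptpn2, 0.139 for Ptpn22, 0.164 for Socs3 and 0.102 for Cish.

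The islet IGRP- cells share the spleen controls of the last comparison, so their values stand beside it and not as a further support. Socs3 was 5.72-fold higher than in spleen (log2 fold change 2.51, SE 0.255, adjusted p = 0.00421) and Socs1 2.31-fold higher (1.21, SE 0.178, adjusted p = 0.0097). Ptpn22 rose 1.80-fold (0.85, SE 0.218, adjusted p = 0.0407), Cish 1.74-fold (0.80, SE 0.165, adjusted p = 0.0234) and Ptpn2 1.49-fold (0.57, SE 0.147, adjusted p = 0.0411). Ptpn6 (−0.75, SE 0.215, adjusted p = 0.0560) and Ptpn11 (0.57, SE 0.179, adjusted p = 0.0695) were called only with the block, with adjusted p-values of 7.14e-05 and 0.000675. Of all genes 12.2% were called higher and 10.2% lower than in spleen, beside 5 of the 8 members higher and 0 lower. With the block 29.2% were higher and 26.3% lower, beside 6 members higher and 1 lower. Socs3 was called in 6 of 6 fits with 1 library left out, Socs1 in 3, Ptpn22 and Cish in 2 and Ptpn2 in 0.

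Tissue and preparation cannot be told apart in the comparisons with spleen. Islets were digested with collagenase and the cells kept at 37 °C before the sort, while spleens were dispersed mechanically and enriched on magnetic beads. The study also describes the sequenced spleen cells as sorted for CD44, a marker of antigen-experienced cells, which is not stated for the islet cells, so that this gate and the tissue cannot be told apart. Of 12 early genes that TCR signals and tissue dissociation both induce, 2 were called higher in islet IGRP+ than in spleen and 5 lower, with Atf3 at a log2 fold change of 3.16, Nr4a1 at 2.63, Jun at −1.98 and Fos at −1.30. Cells with an Nr4a1 UMI held Socs3 at 62.7 and 103 CPM in islet IGRP+, against 50.6 and 83.7 CPM in cells with none. In islet IGRP- the values were 167 and 234 CPM with Nr4a1 and 176 and 273 CPM without. Socs1 differed more in islet IGRP+, with 65.6 and 84.4 CPM in cells with Nr4a1 and 30.8 and 47.7 CPM in cells without. Cish was higher with Nr4a1 in all 4 islet libraries, by log2 ratios from 0.65 to 1.29. Cells with Nr4a1 were also deeper in islets, with a median of 4215.5 to 4843.5 UMIs against 3445 to 3661. The part of dissociation in the differences was not tested.

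CD8 T cells in islets are a mixture of cells near the naive or memory state and of effector and resident cells, many of which carry the tissue homing receptor CXCR6. Cells with a Cxcr6 UMI were compared with cells that had none, leaving out dividing cells (a Top2a or Mki67 UMI). In islet IGRP- there were 1344 and 2140 cells with Cxcr6 and 4271 and 5769 without. In islet IGRP+ the numbers were 404 and 650 with and 510 and 641 without, and in spleen 391 and 404 with and 2947 and 1862 without. A missing UMI need not mean a missing transcript, so the cut is coarse, and in islets the cells with Cxcr6 were also deeper (median of 3671 to 4347.5 UMIs, against 3021 to 3605).

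Socs3 was at 224 and 337 CPM in the islet IGRP- cells without Cxcr6 and at 120 and 155 CPM in those with it. In islet IGRP+ it was at 68.0 and 138 CPM without and at 47.2 and 79.3 CPM with Cxcr6, and in spleen at 40.6 and 43.6 CPM without and at 24.3 and 30.9 CPM with it. All 6 libraries thus had the lower value in cells with Cxcr6. Socs1 went the same way in islets, with 143 and 180 CPM against 94.8 and 108 CPM in islet IGRP- and 63.9 and 105 CPM against 39.8 and 43.8 CPM in islet IGRP+. In spleen Socs1 was at 59.9 and 63.2 CPM without and at 54.2 and 68.4 CPM with Cxcr6, with opposite signs in the rounds.

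Cish went the other way, with 10.9 and 13.0 CPM in the islet IGRP- cells without Cxcr6 and 56.0 and 50.2 CPM in those with it. In islet IGRP+ Cish was at 6.70 and 11.2 CPM against 46.6 and 47.0 CPM, and in spleen at 10.7 and 14.3 CPM against 28.0 and 30.9 CPM. Cish was thus higher with Cxcr6 in all 6 libraries, by log2 ratios from 1.12 in spleen to 2.80 in islet IGRP+. Ptpn7 was also higher with Cxcr6 in each library, with log2 ratios from 0.84 to 1.11 in islets and of 0.62 and 0.18 in spleen. The log2 ratio was 0.02 to 0.40 for Ptpn22, −0.12 to 0.46 for Ptpn2, −0.03 to 0.56 for Ptpn6 and −0.29 to 0.32 for Ptpn11.

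**Figure D3:**
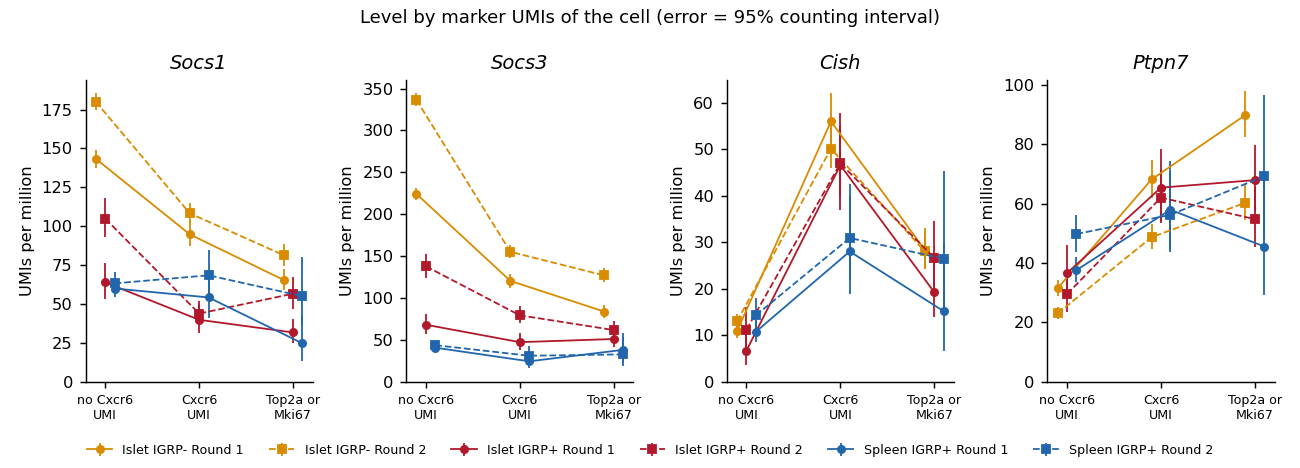
Level in CPM (vertical axes, from 0) of Socs1, Socs3, Cish and Ptpn7 in non-dividing cells without and with a Cxcr6 UMI and in cells with a Top2a or Mki67 UMI, with 1 line per library (solid for Round 1, dashed for Round 2) and 95% counting intervals. Socs3 is lower, and Cish and Ptpn7 are higher, in cells with Cxcr6 than in cells without it in all 6 libraries. Cish in dividing cells, taken with or without Cxcr6, lies between its values in the non-dividing cells without and with Cxcr6.

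Dividing cells had less Cish than the non-dividing cells with Cxcr6 in each library, with 28.4 against 56.0 CPM and 28.0 against 50.2 CPM in islet IGRP-. In islet IGRP+ Cish was at 19.3 against 46.6 CPM and at 26.7 against 47.0 CPM. Ptpn22 was also lower in dividing cells than in these cells with Cxcr6 in all 6 libraries, with log2 ratios from −0.65 to −0.12. The dividing cells were taken with or without Cxcr6, so they are a mixed set. Against non-dividing cells without Cxcr6 they had more Cish in each library, with 28.4 against 10.9 CPM and 28.0 against 13.0 CPM in islet IGRP-. Ptpn22 was there at 283 against 283 CPM and at 353 against 325 CPM, and in islet IGRP+ at 211 against 251 CPM and at 404 against 450 CPM. The dividing spleen cells held 8 and 13 Cish UMIs. These are descriptions of cells within a library, which are not replicates.

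Since the groups differ in their share of cells with Cxcr6, they were also compared in these cells alone, an alternative chosen after the data were seen. Among them Socs3 was at 120 and 155 CPM in islet IGRP-, at 47.2 and 79.3 CPM in islet IGRP+ and at 24.3 and 30.9 CPM in spleen. The groups had the same order as over all cells and did not overlap. The log2 fold change of islet IGRP+ against islet IGRP- was −1.07 for Socs3 (adjusted p = 0.220, and 4.64e-06 with the block), against −1.53 over all cells. For Socs1, at 39.8 and 43.8 CPM against 94.8 and 108 CPM, it was −1.22 (adjusted p = 0.0711, and 1.28e-06 with the block), against −1.23 over all cells.

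Against spleen, cells with Cxcr6 of islet IGRP+ had a log2 fold change of 1.32 for Socs3 (edgeR adjusted p = 0.0170), 1.05 for Ptpn22 (0.0139), 0.80 for Cish (0.0456) and 0.67 for Ptpn2 (0.0427). The 4 members called over all cells were thus also called here, beside 1569 of all 9460 genes tested, higher and lower together (3719 with the block). Ptpn11 had 0.35 and was called in neither fit (adjusted p = 0.271 and 0.115), and Ptpn6 had −0.64 (adjusted p = 0.0617, and 0.00177 with the block). For islet IGRP- against spleen, Socs3 had 2.39 (adjusted p = 0.00332), Cish 0.92 (0.0298), Ptpn22 0.89 (0.0259), Socs1 0.80 (0.0252), Ptpn2 0.67 (0.0445) and Ptpn6 −0.78 (0.0368). These calls stand beside 1357 of the 9460 genes called, higher and lower together (3704 with the block).

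The paired TCR sequences allow a comparison of the same clones in both tissues. A clone was a pair of alpha and beta CDR3 nucleotide sequences, in cells with exactly 1 productive chain of each. These were 2992 of 6429 and 5483 of 8932 kept cells in islet IGRP-. In islet IGRP+ they were 673 of 1204 and 1191 of 1598, and in spleen 1660 of 3524 and 1668 of 2430. The other cells were left out, so a clone seen in 1 cell may be larger. In Round 1, 31 clones were found in islet IGRP+ (632 cells) and in spleen IGRP+ (1375 cells), and in Round 2, 35 clones (1134 and 1445 cells). Within these clones Socs3 was at 50.2 and 88.3 CPM in islets and at 28.9 and 32.3 CPM in spleen. It rose 2.43-fold (log2 fold change 1.28, SE 0.255, adjusted p = 0.0272), and without the Round 2 spleen sum its adjusted p was 0.0523.

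Ptpn22 was at 249 and 432 CPM in the islet cells of shared clones and at 189 and 227 CPM in their spleen cells (log2 fold change 0.81, SE 0.262, adjusted p = 0.0860). Ptpn2 had a log2 fold change of 0.57 (adjusted p = 0.0874), Cish of 0.59 (0.135), Ptpn11 of 0.49 (0.132) and Ptpn6 of −0.55 (0.146). All 5 were called with the block, with adjusted p-values between 5.42e-07 for Ptpn22 and 0.00889 for Cish, in a fit with 1 residual degree of freedom. Socs1 (0.15) and Ptpn7 (0.14) overlapped between the tissues. Of 9960 genes tested 8.65% were called higher in islets and 7.63% lower, beside 1 and 0 of the 8 members, and with the block 25.8% and 25.4%, beside 5 and 1.

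**Figure D4:**
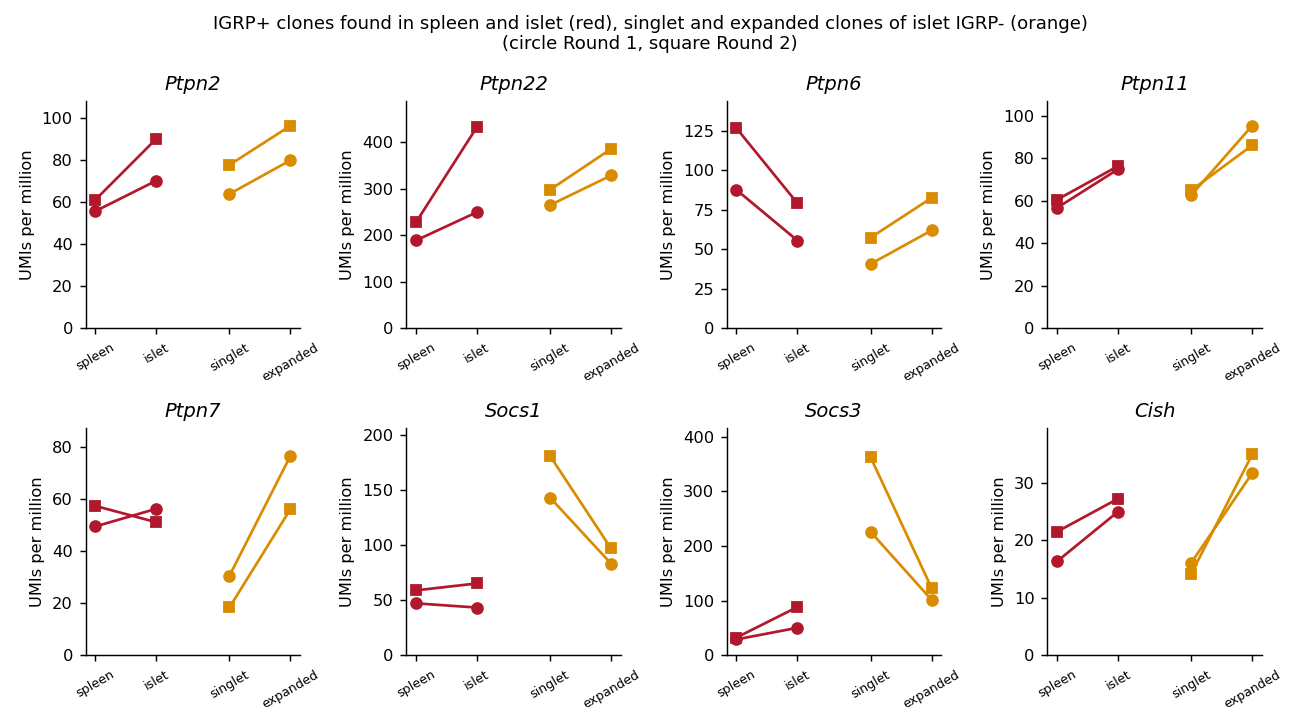
Level in CPM (vertical axes, from 0) of the 8 genes in IGRP+ clones found in spleen and islet of the same round (red) and in singlet and expanded clones of islet IGRP- (orange), with a line per round. Socs3 is higher in islets than in spleen in both rounds, and Socs1 and Socs3 are lower, and Ptpn7 and Cish higher, in expanded than in singlet clones.

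Islet IGRP- cells were also divided by clone size. Expanded clones (at least 2 cells) numbered 237 and 401 with 1603 and 2524 cells, and singlet clones 1389 and 2959. Socs3 was at 101 and 123 CPM in expanded clones and at 226 and 362 CPM in singlets, and fell by 1.54 on the log2 scale (SE 0.220, adjusted p = 0.0436). Socs1 was at 83.2 and 97.0 CPM against 143 and 181 CPM, and fell by 1.00 (SE 0.139, adjusted p = 0.0417). Both calls were lost in at least 3 of the 4 fits with 1 sum left out, with adjusted p-values up to 0.146 for Socs1 and 0.0913 for Socs3. Markers of other cells moved in the same comparison. Of the 3 myeloid markers tested, Cd68 was called higher in expanded clones (log2 fold change 1.71, adjusted p = 0.0322), Lyz2 was at 3.19 (0.0598) and Cst3 at 0.50 (0.142), and all 3 were called higher with the block. Of the 13 exocrine markers tested 0 were called without the block and 13 were lower with it (median −1.10). Their part in the differences was not tested.

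Ptpn7 was at 76.7 and 56.2 CPM in expanded clones and at 30.5 and 18.3 CPM in singlets (log2 fold change 1.28, SE 0.375, adjusted p = 0.134). Cish was at 31.7 and 34.9 CPM against 16.1 and 14.2 CPM (0.98, SE 0.182, adjusted p = 0.0638). With the block both were called (adjusted p = 7.96e-09 and 1.62e-06), as were Ptpn22, Ptpn6 and Ptpn11, whose log2 fold changes with the block were 0.18, 0.40 and 0.34. Ptpn2 was called in neither fit. Of 11182 genes tested, 1.79% were called lower in expanded clones and 1.92% higher, beside 2 and 0 of the 8 members, and with the block 22.4% and 24.7%, beside 2 and 5. The expanded cells of islet IGRP- thus had the lower Socs1 and Socs3 and the higher Ptpn7 and Cish that islet IGRP- cells with Cxcr6 had against those without, and clone size and cell state cannot be told apart here.

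The wider pathway was followed through lists of its genes. Each count stands beside the share of all genes called, which is repeated here because the lists are short. Between islet IGRP+ and islet IGRP- cells, 5 of 16 cytokine receptor chains fell and 0 rose (1.04% and 0.151% over all genes). With the block 10 were lower and 1 higher, beside 16.1% and 14.4% of all genes. The IL-7 receptor Il7r was at a log2 fold change of −3.74, the IL-6 receptor Il6ra at −3.715 and the IL-12 receptor chain Il12rb2 at −3.07. In islet IGRP+ Il6ra was at 0.850 and 2.00 CPM and Il12rb2 at 2.72 and 3.26 CPM, so their folds are imprecise. The interferon-γ receptor chain Ifngr2 was at 42.3 and 50.2 CPM in islet IGRP- and at 0.510 and 0.376 CPM in islet IGRP+ (adjusted p = 0.00647), where 3 UMIs per library leave the fold imprecise. The gp130 chain Il6st, through which SOCS3 acts, was at −1.14 (adjusted p = 0.0309) and is named here after its value was seen. None of the 7 STAT genes was called (median −0.60), and with the block 4 were called lower and 0 higher. Of 10 STAT5 targets 0 were called, with Pim2 at −1.13 (adjusted p = 0.0527), and with the block 5 were lower and 0 higher. The JAK genes (4 tested), the PIAS inhibitors of STATs (4), the other SOCS genes (5) and the other PTPN genes (9 tested of 12) had 0 calls, and with the block Socs5 (−0.45), Socs6 (−0.44), Pias1 (−0.33), Pias2 (−0.44) and Ptpn23 (−0.47) were lower and Ptpn3 (0.59) was higher.

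Of the receptors that recruit SHP-1 or SHP-2, 6 of 10 could be tested. Pdcd1, which encodes PD-1, rose (log2 fold change 1.18, adjusted p = 0.0445) and Pecam1 fell (−2.38, adjusted p = 0.0236), while Ptpn6 and Ptpn11 themselves had differences of 0.16 and 0.04. With the block 2 of these receptors were higher, Pdcd1 and Klrc1 (1.40), and 2 lower, Pecam1 and Btla (−0.81). Of 14 proximal TCR signaling genes 0 were called, with the adaptor Pag1 at −1.72 (adjusted p = 0.0551). With the block 1 TCR signaling gene was higher and 2 were lower, beside 14.4% and 16.1% of all genes.

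Between islet IGRP+ and spleen IGRP+ cells, 3 of 7 STAT genes rose and 0 fell, where 13.7% of all genes rose and 12.9% fell. These were Stat3 (2.86, adjusted p = 0.00379), Stat5a (1.67, adjusted p = 0.0206) and Stat4 (1.03, adjusted p = 0.0253). Of the cytokine receptor chains 8 rose and 5 fell, with Il21r at 2.09, Il4ra at 1.81, Il7r at −4.72 and Il6ra at −3.80. The fold of Il6ra is imprecise, since Il6ra was at 0.850 and 2.00 CPM in islet IGRP+. Other SOCS genes rose too (2 of 5), namely Socs5 (1.25, adjusted p = 0.00839) and the STAT5 target Socs2 (1.40, adjusted p = 0.0410). Socs2 was at 2.38 and 3.13 CPM in islet IGRP+ and at 0.937 and 1.30 CPM in spleen, so its fold is imprecise. It is on both lists and so also counts among the STAT5 targets. Of the STAT5 targets 3 rose and 5 fell, with Myc at −1.73, Bcl2 at −2.40, Pim2 at −0.99 and Ccnd2 at −0.78 among those that fell. Pdcd1 was the 1 SHP-recruiting receptor that rose (3.92, adjusted p = 0.0012), and Lair1 and Pecam1 fell (−2.58 and −1.59). Among other PTPN genes 3 rose and 1 fell, with Ptpn1, the closest relative of Ptpn2, at 1.00 and Ptpn4 at −1.55. Of the 14 TCR signaling genes 1 rose and 3 fell, which is near the shares over all genes, with Vav1 at −0.67, Pag1 at −1.35 and Csk, the kinase that works with PTPN22 on LCK, at −0.61. PIAS genes had 0 rises and 1 fall (Pias3, −1.05), and 0 JAK genes were called. With the block 2 JAK genes were higher and 1 lower, beside 28% and 27.1% of all genes. The other list counts against spleen and in clones are those of the fit without the block.

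Within shared clones, where 8.65% of all genes were higher and 7.63% lower, the lists held 2 of 7 STAT genes higher (Stat3 at 2.71 and Stat5a at 1.56) and 0 lower, 5 of 14 receptor chains higher and 2 lower, and 1 of 5 other SOCS genes higher (Socs5, 1.25). For islet IGRP- against spleen (12.2% and 10.2% over all genes), 4 of 7 STAT genes rose and 0 fell (Stat3 2.58, Stat5a 2.27, Stat5b 1.41 and Stat4 0.88), and 9 of 16 receptor chains rose and 3 fell, with Il4ra at 3.10 and Il6st at 1.75. In expanded against singlet clones (1.79% lower and 1.92% higher over all genes), 6 of 16 receptor chains fell and 0 rose (among them Il6ra at −2.96, Il6st at −1.65 and Il7r at −2.33).

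The genes closest to each member in pattern over the 6 libraries were sought among 5632 genes of at least 20 CPM, by the mean absolute difference of centred log2 CPM. Ptpn22 was closest to Stat4 (difference of 0.0279), with Appbp2 and Runx2 next (0.0631 and 0.0677). Socs3 was closest to Dusp10 (0.0919), Ccr7 (0.166) and Rgs10 (0.241), and Socs1 to Emb (0.103) and Tspan13 (0.163). Ptpn11 was closest to Nktr (0.0181), Cish to Tmem115 (0.0456), Ptpn2 to Sap30bp (0.0328), Ptpn6 to Ddx39b (0.0358) and Ptpn7 to Lzic (0.0752). With 6 libraries in 3 groups, which share round and depth, this likeness is a description.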

How the data were processed

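CD8 T cells of pooled NOD mice were measured by 10x 5′ scRNA-seq and scTCR-seq, with 2 libraries per group. The authors deposited raw UMI counts per gene and cell, made with Cell Ranger on mm10 (version 5.0.1 in the header of the count files, another version in the study's methods), with no normalization. From the scTCR-seq tables the authors deposited, chains, CDR3 sequences and barcodes were used (counts of reads and UMIs per contig were not). Round 1 and Round 2 were sequenced with different read lengths. The 8 genes and the gene lists were chosen with earlier results of these data known. The study's exclusion of a cluster of exocrine cells was not repeated here.

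Counts of kept cells were summed per library and tested with edgeR 4.0.16 (limma 3.58.1, R 4.3.3), using TMM, filterByExpr, quasi-likelihood F-tests and Benjamini-Hochberg adjustment, in 1 fit of the 6 libraries with no round term. The fits without the block were checked on simulated counts with no round effect and with changes larger than most of those of the members. The check thus does not cover the blocked fits, smaller changes or libraries that deviate together by round. CPM values are UMIs scaled to a common library total, without the TMM factors. Counting ran in Python 3.11.15 (scipy 1.17.1 and pandas 2.3.3) and plotting in matplotlib 3.10.9. Replicates are pools of mice, and 2 libraries against 2 give limited precision. Intervals of CPM (exact Poisson) and of shares (Clopper-Pearson) cover counting error only. Library depth was 5880696 to 40469961 UMIs. Doublets were not called, and an alternative left out cells with more than 1 productive beta chain. Ambient RNA was not removed.

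Round numbers pair the libraries, since each round was 1 pool of mice. Deviations of the 2 rounds from the group means correlated between groups over 5618 genes (Pearson r of 0.859, 0.875 and 0.821). Results were recomputed with round blocked, with DESeq2 1.42.0, DESeq2's size factors in edgeR, no filter on low counts, only the 2 groups compared, no upper limit on genes per cell, other clone sizes, exocrine-rich cells left out, each library left out, and, added after the data were seen, only non-dividing cells with a Cxcr6 UMI. The division of cells by Cxcr6 was also set after the data were seen. Named genes were the 8 members, up to 4 of each list with the lowest adjusted p in a comparison, and the 3 genes nearest to a member, and some genes and 1 list that this rule covers are not reported here. Promoters of 7 members were matched by symbol in RefSeq (GRCm38.p6), and gene positions came from GENCODE vM21, by gene ID.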

Additional observations from a re-analysis of the deposited data

How the results depend on the processing

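Of 504 recomputed log2 fold changes of the members, 404 kept their direction and their side of the threshold, 31 passed it newly, 53 missed it and 16 changed sign, and none of those that changed sign was called. DESeq2's size factors, cells with more than 1 beta chain left out, exocrine-rich cells left out (6 cells) and other clone sizes changed 0 counts of members called. Round as a block (replicate block) made 15 of 40 values newly called and lost none, and it changed no other call. Where a comparison keeps 1 library of a group, that library is assumed to vary like the others. These fits had no round term.

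For islet IGRP+ against islet IGRP-, the genes called numbered 134, with 3442 under the block, 574 with DESeq2, 711 with no filter, 24 with only the 2 groups, 12 in cells with Cxcr6 and 0 to 30 with 1 library left out. Members called numbered 1, with 2 under the block, with DESeq2, with no filter and with no upper limit on genes, and 0 with only the 2 groups, in cells with Cxcr6 and with any 1 library left out (0 to 0).

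For islet IGRP+ against spleen, genes called numbered 3004, with 6215 under the block, 1569 in cells with Cxcr6 and 892 to 2050 with 1 library left out, and members called 4, with 2 with only the 2 groups and 0 to 3 with 1 library left out. For islet IGRP- against spleen, genes called numbered 2530, with 6251 under the block, 1357 in cells with Cxcr6 and 382 to 2547 with 1 library left out, and members called 5, with 1 to 4 with 1 library left out.

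In shared clones, genes called numbered 1622, with 5094 under the block, 2916 with no filter and 989 to 1835 with 1 sum left out, and members called 1, with 6 under the block, 2 with DESeq2 and with no filter, and 0 to 2 with 1 sum left out. In expanded against singlet clones, genes called numbered 415, with 5261 under the block, 1014 with DESeq2, 1481 with no filter and 76 to 297 with 1 sum left out, and members called 2, with 7 under the block, 4 with DESeq2 and with no filter, and 0 to 1 with 1 sum left out. The cause was not tested.

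The log2 fold changes that changed sign ranged, with 1 library left out, from −0.064 to 0.14 for Ptpn2, −0.18 to 0.35 for Ptpn22, −0.0097 to 0.34 for Ptpn6, −0.079 to 0.16 for Ptpn11 and −0.017 to 0.65 for Ptpn7 between the islet groups, from −0.21 to 0.13 for Socs1 in islet IGRP+ and from −0.35 to 0.33 for Ptpn7 in islet IGRP- against spleen, and from −0.035 to 0.32 for Ptpn7 and −0.047 to 0.33 for Socs1 in shared clones. Cish between the islet groups was −0.13 in cells with Cxcr6, and Socs1 of islet IGRP+ against spleen was 0.0043 with DESeq2's size factors and 0.0067 with DESeq2. Cish had the fewest UMIs of the members in spleen (124 and 125).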
